A study of Mus musculus with 18 samples.

Results

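Cholangiocytes are the epithelial cells that line the bile ducts, and the RNA levels of 8 genes that mark them or the ductular reaction were followed in mouse liver: Krt7, Krt19, Krt23, Epcam, Sox9, Spp1, Cldn4 and Cftr. They were picked by symbol from a table of 54752 genes, all 8 were found there, and all 8 had enough counts to be tested beside 21906 other genes. The series measured whole-liver RNA, depleted of ribosomal RNA, in 18 male C57BL/6 mice with 1 library per mouse and 6 mice per group. Cirrhosis-PTH mice were injected intraperitoneally with 10% carbon tetrachloride (CCl4) in corn oil and were dosed by mouth each day with PTH at 0.25 mg per g. The letters PTH stand here for the traditional Chinese medicine Pien Tze Huang, and do not refer to parathyroid hormone. Cirrhosis mice had the same CCl4 injections with daily oral double distilled water, and Control mice had injections of corn oil alone with the same water. All injections were 10 µl per g, given 2 times a week for 12 weeks to mice bought at 6 weeks of age. No group was given PTH without CCl4, so PTH was measured only on top of CCl4.

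Bile duct epithelium carries the keratins of simple epithelium, the adhesion protein EPCAM and tight junctions, and it moves chloride and bicarbonate into bile. When the liver is injured for long, duct-like cells expand around the portal tracts, which is called the ductular reaction, and injured hepatocytes can themselves take up SOX9 and other duct genes. CCl4 is activated in pericentral hepatocytes and is known for scarring more than for duct disease. Several of these genes are not limited to ducts: SPP1 (osteopontin) is also made by macrophages and injured hepatocytes, SOX9 by stellate cells, and KRT7 and KRT19 by the mesothelium of the liver capsule. In whole liver, fewer cells of a type and less RNA per cell cannot be told apart.

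The 8 genes were protein-coding and lay on 5 chromosomes of build GRCm38. The keratin genes were Krt7 (ENSMUSG00000023039, chr15:101411043-101430313, plus strand), Krt19 (ENSMUSG00000020911, chr11:100140810-100148665, minus strand) and Krt23 (ENSMUSG00000006777, chr11:99477974-99493137, minus strand). Epcam (ENSMUSG00000045394) lay at chr17:87635979-87651129 on the plus strand, and Sox9 (ENSMUSG00000000567) at chr11:112782224-112787760 on the plus strand. Spp1 (ENSMUSG00000029304) and Cldn4 (ENSMUSG00000047501) shared chromosome 5, at chr5:104435118-104441050 on the plus strand and chr5:134945119-134946934 on the minus strand. Cftr (ENSMUSG00000041301) lay at chr6:18170687-18322768 on the plus strand. Exons of other annotated genes overlapped 77 bp of the 7049 exonic bp of Krt7 (antisense Gm671), 129 bp of the 7765 exonic bp of Cftr (antisense Gm15592) and 309 bp of the 1648 exonic bp of Spp1 (Gm42793, on the same strand). The sources used here do not say whether strand was used in counting, so reads in those stretches are uncertain.

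The libraries held 62.5 to 112.3 M counts each, of which 24.5 to 67.5 M lay outside loci that collect ribosomal RNA reads. CPM is a gene's count per M counts of its library, with library sizes scaled by edgeR's TMM method. Control replicates 7 and 8 stood apart from the other Control libraries in an earlier analysis of these data, and results that change without them are given with the changed value. Both were also shallower, after scaling, than every other library. In them 262 and 207 counts of Sox9 gave 5.77 and 5.74 CPM, whereas 655 counts in Control replicate 6 gave 6.64 CPM. Cirrhosis replicate 2 held RNA of pancreatic enzyme genes, and the counts of called genes without it are given with those genes. Most of the genes were scarce: apart from Spp1 and Sox9, none passed 475 counts in any library. Differences were tested with edgeR's quasi-likelihood test in 1 fit of all 18 libraries, with Benjamini-Hochberg adjustment over 21914 genes and a threshold of 0.05, and each adjusted p is from that test unless another is named.

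In livers injured by CCl4, 7 of the 8 genes rose against Control, and none fell. The test called 25.5% of all tested genes higher in that comparison and 25.0% lower. The median log2 fold change of the 8 genes was 2.04, against 0.015 over all genes tested. In Cirrhosis-PTH livers, 3 of the 8 genes, Sox9, Spp1 and Cldn4, fell against Cirrhosis, and none rose, where 18.6% of all tested genes were called lower and 20.1% higher. The other 4 that had risen, Krt7, Krt19, Epcam and Cftr, did not pass the test in that comparison. Against Control, Cirrhosis-PTH livers had 2 of the 8 genes higher, Krt19 and Cftr, and none lower, where 6.34% of all tested genes were called higher and 2.48% lower.

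**Figure D1:**
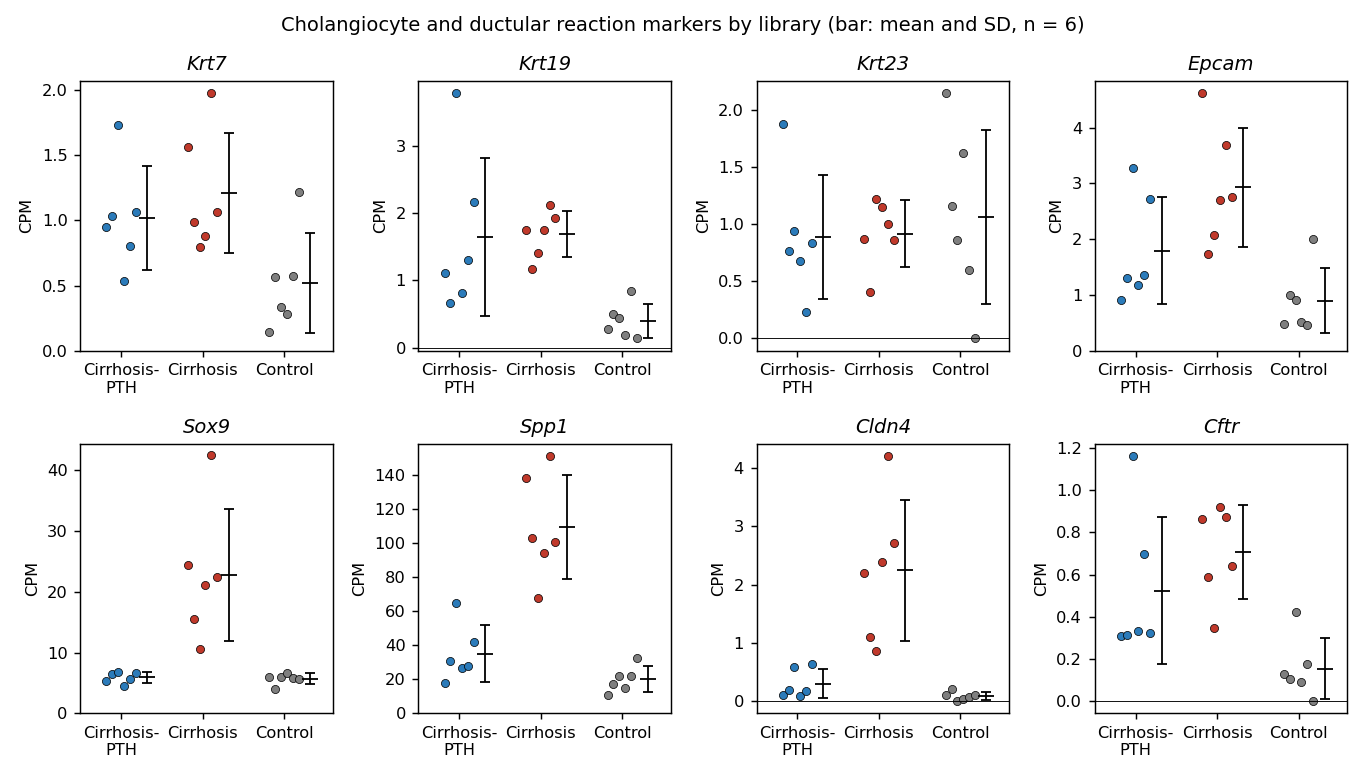
Level of each of the 8 genes in CPM (linear axes that start at or just below 0), 1 point per library, in Cirrhosis-PTH, Cirrhosis and Control livers from left to right, with the mean and SD of 6 libraries beside the points. The 6 Cirrhosis libraries lie above all others for Sox9, Spp1 and Cldn4, and the Cirrhosis-PTH and Cirrhosis points overlap for Krt7, Krt19, Krt23, Epcam and Cftr.

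Sox9 encodes a transcription factor of embryonic and adult bile ducts. Its lowest, median and highest levels were 4.54, 6.11 and 6.85 CPM in Cirrhosis-PTH, 10.6, 21.8 and 42.4 CPM in Cirrhosis, and 4.03, 5.89 and 6.64 CPM in Control. All 6 Cirrhosis libraries were above every library of both other groups, whose ranges lay almost on top of each other. Sox9 rose in Cirrhosis against Control by 1.99 ± 0.24 on the log2 scale (SE; adjusted p = 1.5e-06), a fitted fold of 3.99. In Cirrhosis-PTH it fell against Cirrhosis by 1.94 ± 0.24 (adjusted p = 3.3e-06). The difference between Cirrhosis-PTH and Control was 0.06 ± 0.24 (adjusted p = 0.92), with a 95% interval of -0.41 to 0.52. Sox9 was also the steadiest of the 8 genes outside Cirrhosis, with a coefficient of variation of 15.3% in Cirrhosis-PTH, 47.8% in Cirrhosis and 15.5% in Control.

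Spp1 encodes osteopontin, a secreted phosphoprotein that binds integrins and CD44. It was measured at 17.95, 29.4 and 65.2 CPM (lowest, median and highest) in Cirrhosis-PTH, 67.9, 102.2 and 151.6 CPM in Cirrhosis, and 10.9, 19.6 and 32.9 CPM in Control. The Cirrhosis range lay above both others, though Cirrhosis-PTH replicate 3 came within a few CPM of the lowest Cirrhosis library, and the ranges of Cirrhosis-PTH and Control overlapped. Spp1 rose by 2.45 ± 0.32 in Cirrhosis against Control (log2, SE; adjusted p = 7.3e-06) and fell by 1.64 ± 0.31 in Cirrhosis-PTH against Cirrhosis (adjusted p = 0.00045). Its level in Cirrhosis-PTH, 35.1 ± 16.7 CPM, did not pass the test against the Control level of 20.1 ± 7.59 CPM (SD, n = 6 each; log2 0.81 ± 0.31, adjusted p = 0.12). Without both Control replicates 7 and 8 that difference was 1.14 with an adjusted p of 0.047.

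Cldn4 encodes claudin-4, a tight junction protein of ducts and other epithelia. It had 8 to 67 counts per library in Cirrhosis-PTH, 94 to 464 counts in Cirrhosis, and 0 to 14 counts in Control. As levels these were 0.0916, 0.176 and 0.638 CPM (lowest, median and highest) in Cirrhosis-PTH, 0.861, 2.30 and 4.21 CPM in Cirrhosis, and 0, 0.0831 and 0.208 CPM in Control. Every Cirrhosis library again lay above every library of both other groups, and within Cirrhosis-PTH only replicates 3 and 6 were above the Control range. Cldn4 had the largest change of the 8 genes in Cirrhosis against Control, 4.68 ± 0.64 on the log2 scale (adjusted p = 4.6e-06), and fell by 2.90 ± 0.55 in Cirrhosis-PTH against Cirrhosis (adjusted p = 0.00026). Cirrhosis-PTH and Control differed by 1.78 ± 0.64 (adjusted p = 0.094), and DESeq2's Wald test called this difference (adjusted p = 0.024).

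The stretch of 250 bases before the RefSeq start of each gene was read from RefSeq promoters (GRCm38.p6), which held an entry for 6 of the 8 genes. Krt19 and Sox9 had no match. It was searched on both strands for short letters that stand for 6 transcription factor families: TEAD (GGAATG), RBPJ (GTGGGAA), HNF1 (GTTAAT), SOX (ACAATG), AP-1 (TGANTCA) and FOXA (TGTTTAC). The sequences are shown for the pair that fell in Cirrhosis-PTH, Cldn4 and Spp1, and for Cftr, which did not pass the test there, each 5′ to 3′ on the strand of its gene with matched letters in capitals.
Cldn4 (chr5:134946935-134947184, minus strand): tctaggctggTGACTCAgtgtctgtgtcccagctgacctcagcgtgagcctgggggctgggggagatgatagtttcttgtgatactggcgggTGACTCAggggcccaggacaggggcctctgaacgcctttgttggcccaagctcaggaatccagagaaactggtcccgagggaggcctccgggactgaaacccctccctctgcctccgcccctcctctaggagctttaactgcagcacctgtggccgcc
Spp1 (chr5:104434861-104435110, plus strand): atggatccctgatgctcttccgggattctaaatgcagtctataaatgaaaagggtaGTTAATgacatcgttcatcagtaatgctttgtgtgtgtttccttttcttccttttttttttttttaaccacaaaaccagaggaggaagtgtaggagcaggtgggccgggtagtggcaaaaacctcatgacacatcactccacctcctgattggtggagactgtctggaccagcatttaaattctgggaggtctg
Cftr (chr6:18170437-18170686, plus strand): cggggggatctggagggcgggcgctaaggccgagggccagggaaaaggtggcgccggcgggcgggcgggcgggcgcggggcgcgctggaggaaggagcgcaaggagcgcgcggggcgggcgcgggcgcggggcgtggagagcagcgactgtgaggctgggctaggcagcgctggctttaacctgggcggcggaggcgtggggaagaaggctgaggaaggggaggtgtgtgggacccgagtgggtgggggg
Cldn4 held the AP-1 letters at 2 places, beginning 240 and 158 bases before its start, and 6.75% of 32851 mouse promoters hold them at least once. Spp1 held the HNF1 letters 194 bases before its start, which 6.43% of promoters hold. Cftr held none of the 6, in a stretch with 76.4% G and C, against a median of 52.4% over all promoters. Of the other 3 genes with an entry, Krt23 had the SOX letters 90 bases before its start, which 10.7% of promoters hold, and Krt7 and Epcam had none of the 6. The RefSeq start can differ from the gene span given above. The Krt7 stretch (chr15:101412153-101412402) lies inside that span, and the Krt23 stretch (chr11:99493121-99493370) overlaps the end of its span. A match of letters is a description of the sequence and not evidence of binding.

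Krt19 encodes the type I keratin most used to mark bile ducts. Its lowest, median and highest levels were 0.667, 1.20 and 3.78 CPM in Cirrhosis-PTH, 1.17, 1.75 and 2.11 CPM in Cirrhosis, and 0.139, 0.363 and 0.837 CPM in Control. The Cirrhosis libraries were all above the Control libraries, while the Cirrhosis-PTH libraries spread on both sides of the Cirrhosis range, with 2 above it and 3 below it. Krt19 rose by 2.09 ± 0.42 in Cirrhosis against Control (log2, SE; adjusted p = 0.00032). Its mean in Cirrhosis-PTH, 1.64 ± 1.17 CPM, was close to the 1.69 ± 0.345 CPM of Cirrhosis (SD, n = 6 each), and the log2 difference was -0.04 ± 0.39 (adjusted p = 0.96, 95% interval -0.79 to 0.72). Against Control, Krt19 was higher in Cirrhosis-PTH by 2.05 ± 0.42 (adjusted p = 0.0038), with 4 of 6 Cirrhosis-PTH libraries above every Control library. Cirrhosis-PTH replicate 3 was the highest of all 18 libraries. Without it the log2 difference was -0.47 against Cirrhosis (adjusted p = 0.32) and 1.62 against Control (adjusted p = 0.011).

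Krt7 encodes the type II keratin that pairs with KRT19 in ducts. It measured 0.538, 0.993 and 1.73 CPM (lowest, median and highest) in Cirrhosis-PTH, 0.797, 1.03 and 1.98 CPM in Cirrhosis, and 0.143, 0.452 and 1.22 CPM in Control. All 3 groups overlapped, and the highest Control value, in replicate 8, exceeded 4 of the 6 Cirrhosis libraries. Krt7 rose by 1.27 ± 0.39 in Cirrhosis against Control (log2, SE; adjusted p = 0.0099). The differences of Cirrhosis-PTH from Cirrhosis (-0.25 ± 0.37, adjusted p = 0.65, 95% interval -0.97 to 0.48) and from Control (1.02 ± 0.39, adjusted p = 0.11) did not pass the test. Without Control replicate 8 the difference of Cirrhosis-PTH from Control was 1.44, and it passed, as it did without both replicates 7 and 8 (1.65).

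Epcam encodes an adhesion protein of ducts and of progenitor-like liver cells that mature hepatocytes lack. It measured 0.912, 1.34 and 3.27 CPM (lowest, median and highest) in Cirrhosis-PTH, 1.73, 2.73 and 4.62 CPM in Cirrhosis, and 0.463, 0.716 and 1.995 CPM in Control. In Cirrhosis-PTH, 4 of the 6 libraries lay below the whole Cirrhosis range, and replicates 3 and 6 lay inside it. Epcam rose by 1.74 ± 0.38 in Cirrhosis against Control (log2, SE; adjusted p = 0.00077), with 5 of 6 Cirrhosis libraries above all Control libraries. Cirrhosis-PTH differed from Cirrhosis by -0.70 ± 0.36 (adjusted p = 0.14, 95% interval -1.42 to 0.01), and without Cirrhosis-PTH replicate 3 by -0.96 (adjusted p = 0.043). Against Control, Cirrhosis-PTH differed by 1.04 ± 0.38 (adjusted p = 0.0998), and this passed without Control replicate 8 (1.41), without both replicates 7 and 8 (1.34) and with DESeq2's Wald test (adjusted p = 0.044).

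Cftr encodes the chloride channel of the apical duct membrane, through which duct cells drive secretion into bile. It measured 0.308, 0.328 and 1.16 CPM (lowest, median and highest) in Cirrhosis-PTH, 0.348, 0.754 and 0.921 CPM in Cirrhosis, and 0, 0.116 and 0.423 CPM in Control, on 0 to 108 counts per library. In Cirrhosis-PTH, 4 of 6 libraries were below every Cirrhosis library, and replicate 3 was the highest of all 18. Cftr rose by 2.17 ± 0.51 in Cirrhosis against Control (log2, SE; adjusted p = 0.0013) and differed by -0.43 ± 0.47 between Cirrhosis-PTH and Cirrhosis (adjusted p = 0.52, 95% interval -1.34 to 0.49). Against Control it was higher in Cirrhosis-PTH by 1.74 ± 0.51 (adjusted p = 0.038). That call rested on single libraries and settings. It was lost without Control replicate 1, 2, 6 or 7, without Cirrhosis-PTH replicate 5, without both Control replicates 7 and 8 (1.55, adjusted p = 0.069) and in a fit of only the 12 libraries compared (1.73, adjusted p = 0.079), and without Cirrhosis-PTH replicate 3 the difference was 1.34 (adjusted p = 0.13).

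Krt23 encodes a type I keratin known to rise in duct-like cells of injured mouse liver. Its levels ran from 0.229 to 1.88 CPM in Cirrhosis-PTH with a median of 0.802, from 0.404 to 1.22 CPM in Cirrhosis with a median of 0.932, and from 0 to 2.14 CPM in Control with a median of 1.01. The Control libraries spanned the whole range of both other groups, and Control replicate 8 had no count. Krt23 was the only one of the 8 genes that passed no comparison in the fit of all libraries. Its log2 differences were -0.24 ± 0.55 for Cirrhosis against Control (adjusted p = 0.74, 95% interval -1.32 to 0.83), -0.05 ± 0.55 for Cirrhosis-PTH against Cirrhosis (adjusted p = 0.96) and -0.29 ± 0.55 for Cirrhosis-PTH against Control (adjusted p = 0.81).

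**Figure D2:**
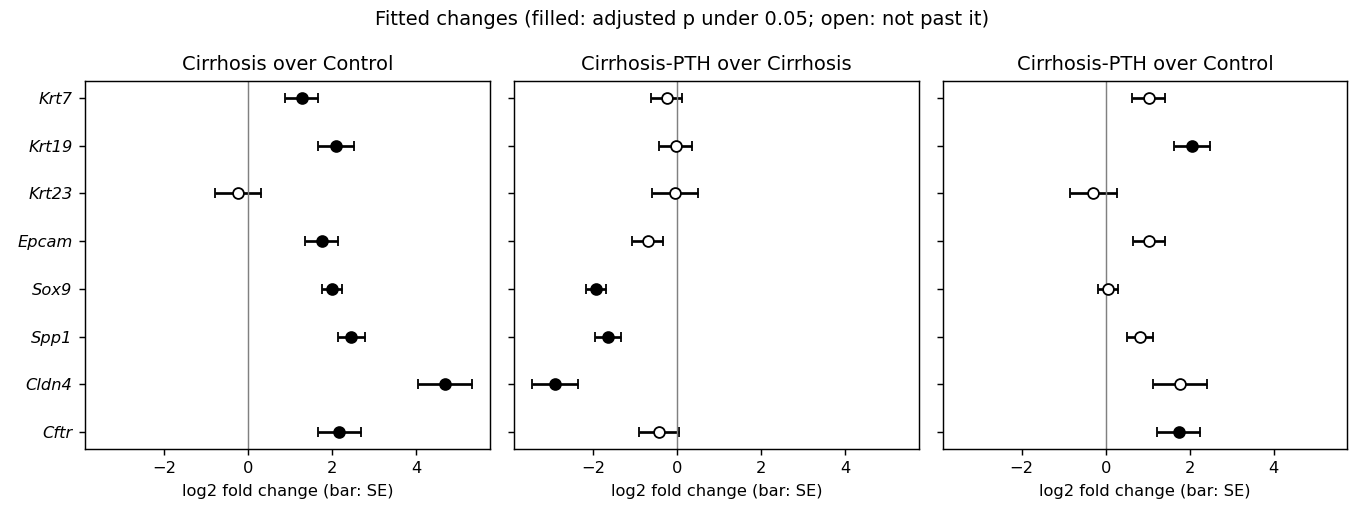
Fitted log2 fold change of each gene in the 3 comparisons, with SE bars. Filled points pass an adjusted p of 0.05 and open points do not. In the middle panel, Cirrhosis-PTH over Cirrhosis, the filled points of Sox9 (-1.94), Spp1 (-1.64) and Cldn4 (-2.90) stand to the left of the 5 open ones, which lie between -0.70 and -0.04.

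Counting genes whose libraries did not overlap gave a stricter view. In Cirrhosis against Control, 4 of the 8 genes (Krt19, Sox9, Spp1 and Cldn4) had every Cirrhosis library above every Control library, where 15.6% of all tested genes did. In Cirrhosis-PTH against Cirrhosis, 3 of the 8 (Sox9, Spp1 and Cldn4) had every Cirrhosis-PTH library below every Cirrhosis library, where 11% of all tested genes did. In Cirrhosis-PTH against Control none of the 8 had all libraries apart, where 3.07% of all tested genes were apart in the upward direction. The 3 comparisons share libraries in pairs, so they are not independent of each other.

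A gene that passes the test and another that does not are not thereby shown to differ, so the ratio of each pair of the 8 genes was compared between groups within libraries. This used log2 CPM and a two-sided exact permutation test with Benjamini-Hochberg adjustment over 84 tests. The 12 libraries of a comparison can be divided in 924 ways, so no p can fall below 0.0022. The ratios were examined after the single genes had been seen. Between Cirrhosis-PTH and Cirrhosis, 15 of 28 ratios passed, against 6 of 28 between Cirrhosis and Control and 2 of 28 between Cirrhosis-PTH and Control. Among the 15 were all 12 ratios that set Krt7, Krt19, Epcam or Cftr over Sox9, Spp1 or Cldn4, each higher in Cirrhosis-PTH by 0.93 to 2.76 on the log2 scale. These 2 sets of genes were split by the single-gene test of the same comparison and libraries. The direction of the 12 ratios follows from that split, and they share genes, so they are not separate support for it.

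The Krt19 to Sox9 log2 ratio averaged -2.09 ± 0.81 in Cirrhosis-PTH, -3.64 ± 0.46 in Cirrhosis and -3.98 ± 1.02 in Control (SD, n = 6 each). It was higher in Cirrhosis-PTH than in Cirrhosis by 1.55 and than in Control by 1.89 (exact permutation test, adjusted p = 0.023 and 0.035). No ratio passed between Cirrhosis-PTH and Control, this one included, without Control replicate 1 or 6 or without Cirrhosis-PTH replicate 1, 3, 4, 5 or 6. The Krt7 to Sox9 ratio was higher in Cirrhosis-PTH than in Cirrhosis by 1.57, with all 6 libraries of 1 group above all 6 of the other (exact permutation test, adjusted p = 0.015). The Krt19 to Spp1 ratio was higher by 1.44 and the Krt19 to Cldn4 ratio by 2.73, both again without overlap (exact permutation test, adjusted p = 0.015 each). Sox9 to Cftr was lower in Cirrhosis-PTH by 1.27 (exact permutation test, adjusted p = 0.015). Epcam to Sox9, higher by 1.04 (exact permutation test, adjusted p = 0.035), was lost without any 1 of 8 libraries, Cirrhosis replicates 2, 4, 5 and 6 and Cirrhosis-PTH replicates 3 to 6. Sox9 and Spp1 were not told apart: their ratio differed by -0.11 between Cirrhosis-PTH and Cirrhosis (exact permutation test, adjusted p = 0.77). Spp1 to Cldn4 was higher in Cirrhosis-PTH by 1.29 (exact permutation test, adjusted p = 0.035). Ratios with Krt23, which had not risen in Cirrhosis, shifted too, though Krt23 itself differed by only -0.05 ± 0.55 between Cirrhosis-PTH and Cirrhosis. Krt23 to Sox9 was higher in Cirrhosis-PTH by 1.62 and Krt23 to Cldn4 by 2.81 (exact permutation test, adjusted p = 0.047 and 0.032). Krt23 to Spp1 did not pass (exact permutation test, adjusted p = 0.051).

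**Figure D3:**
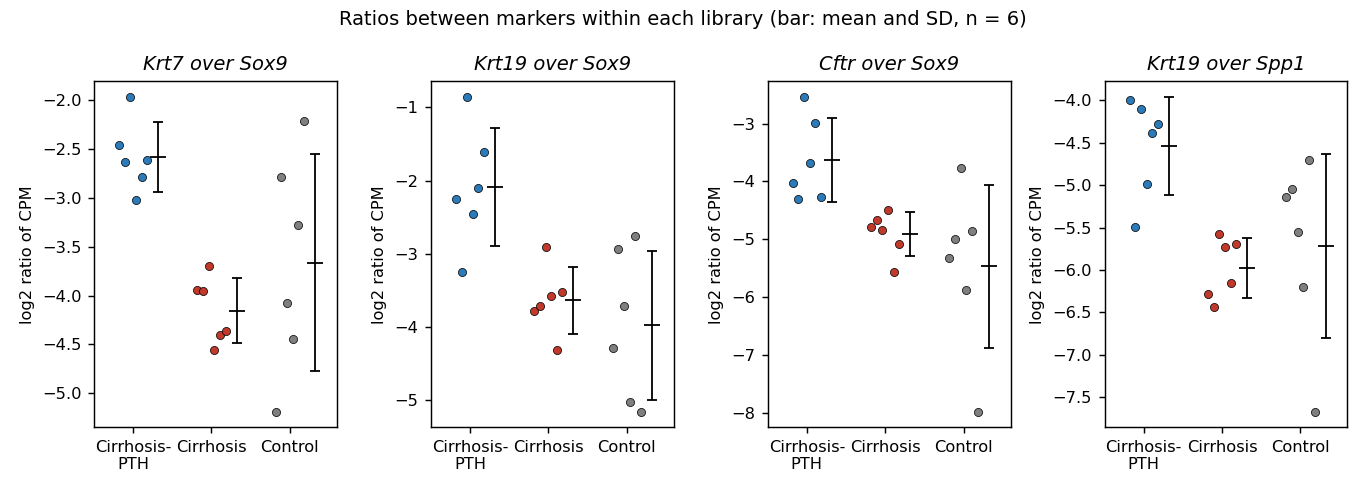
Log2 ratio of CPM between markers within each library, for Krt7, Krt19 and Cftr over Sox9 and for Krt19 over Spp1, with the mean and SD of 6 libraries. The Cirrhosis-PTH points lie above the Cirrhosis points, with some overlap for Krt19 over Sox9, and the Control points spread the most, with SDs from 1.02 (Krt19 over Sox9) to 1.41 (Cftr over Sox9).

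Between Cirrhosis and Control, the ratios that passed were mainly those with Cldn4, which rose more than Krt7, Krt19, Epcam, Sox9 and Spp1. On the log2 scale Krt7 to Cldn4 was lower in Cirrhosis by 3.10 and Sox9 to Cldn4 by 2.61 (exact permutation test, adjusted p = 0.015 each). The 6th was Krt7 to Spp1, lower by 1.09 (exact permutation test, adjusted p = 0.015). Without Control replicate 8, 15 of the 28 ratios passed.

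Levels of different genes were compared per kilobase of exon. Spp1 was the most abundant, with 21.3 ± 10.1 CPM per kb in Cirrhosis-PTH, 66.4 ± 18.6 in Cirrhosis and 12.2 ± 4.61 in Control, and Sox9 came next, with 1.44 ± 0.219, 5.51 ± 2.63 and 1.38 ± 0.214 CPM per kb in the same groups (SD, n = 6 each). Spp1 was above Sox9 in all 6 libraries of each group. Below them the order differed: Krt19, Epcam, Krt23, Cldn4, Krt7 and Cftr in Cirrhosis-PTH, Epcam, Cldn4, Krt19, Krt23, Krt7 and Cftr in Cirrhosis, and Krt23, Epcam, Krt19, Krt7, Cldn4 and Cftr in Control. Cldn4 thus stood at 0.163 ± 0.138 CPM per kb in Cirrhosis-PTH, 1.24 ± 0.667 in Cirrhosis and 0.0483 ± 0.0394 in Control. Apart from Spp1 over Sox9 in every group and Sox9 over Epcam in Cirrhosis, the ranges of neighbouring genes in these orders overlapped. The exon lengths of Krt7 and Cftr may exceed their main transcripts, which would lower their values per kb.

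Within groups, some of the genes varied together from mouse to mouse. After each group mean was subtracted, log2 CPM of Epcam and Spp1 had a Pearson r of 0.82 over 18 libraries, Krt7 and Spp1 0.81, and Krt7 and Epcam 0.72, while Krt7 and Krt23 had -0.57. Krt19 did not share in this: its r was 0.24 with Krt7, 0.24 with Epcam and 0.39 with Spp1, and 0.67 with Cftr. The log2 ratio of Krt7 to Krt23 spread most in Control (SD 3.30, against 0.927 in Cirrhosis-PTH and 0.754 in Cirrhosis). Control replicate 8 had no Krt23 count and the highest Krt7 of its group. Over all tested genes whose log2 CPM averaged 0 or more, the patterns most like that of Sox9 included Pip4p2 (r = 0.93) and Slc12a4 (0.92). For Krt19 the closest were Sytl2 (0.92), Fbn2 (0.91) and Plrg1 (0.91), those for Krt7 included Cdh3 (0.86), and those for Epcam were P3h2 (0.87) and Tmem119 (0.86). Spp1 was followed most closely by Sestd1 (0.90) and Itgb8 (0.88), Cldn4 by Ctu1 (0.86) and B3galt6 (0.85), Cftr by D11Wsu47e (0.83), and Krt23 by Lipo3 and Mtif3 (0.85 each). These are descriptions of 18 libraries, in which all genes of a library share its depth, and they are the highest of many.

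Other genes of duct epithelium were counted as well. The counts of this list and of those that follow are to be read beside the shares of all tested genes. In Cirrhosis against Control 25.5% were called higher and 25.0% lower. In Cirrhosis-PTH against Cirrhosis 20.1% were called higher and 18.6% lower, and in Cirrhosis-PTH against Control 6.34% and 2.48%. A count near its share is not a result about its list. Of 32 duct genes beside the 8, 30 were tested, and in Cirrhosis against Control 19 rose and 2 fell, with a median log2 fold change of 1.54. Cd24a, a surface glycoprotein of duct and progenitor-like cells, measured 3.16 ± 0.970 CPM in Cirrhosis-PTH, 8.12 ± 1.52 CPM in Cirrhosis and 1.85 ± 0.477 CPM in Control (SD, n = 6 each). Slc10a2, the apical bile acid transporter of ducts and ileum, measured 12.6 ± 3.31, 22.8 ± 4.96 and 5.42 ± 0.833 CPM in the same order, and Tspan8, a tetraspanin, rose in Cirrhosis against Control by 3.10 ± 0.39. Among those that fell was the transcription factor gene Onecut1 (-1.58 ± 0.53), which hepatocytes also express.

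In Cirrhosis-PTH against Cirrhosis, 8 of the 30 fell and none rose, with a median of -0.30. Over all tested genes, 18.6% were called lower there. Cd24a fell by 1.36 ± 0.19, Slc10a2 by 0.86 ± 0.17, Tspan8 by 1.59 ± 0.35 and the epithelial transcription factor gene Elf3 by 2.28 ± 0.44. Against Control, 9 of the 30 were higher in Cirrhosis-PTH and none lower, with a median of 0.78. Ncam1, an adhesion molecule of reactive ductules that stellate cells also express, was among them, at 6.03 ± 3.50 CPM in Cirrhosis-PTH, 7.04 ± 1.03 CPM in Cirrhosis and 0.852 ± 0.468 CPM in Control. Ano1, a calcium-gated chloride channel, was higher in Cirrhosis-PTH than in Control by 1.15 ± 0.19.

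Of 14 genes for duct ion, water and bile acid transport beside Cftr, 6 rose and 1 fell in Cirrhosis against Control (median 0.36), and 1 rose and 3 fell in Cirrhosis-PTH against Cirrhosis (median -0.01). The gene lower in Cirrhosis than in Control was Adcy6, an adenylyl cyclase, which was also the one that rose in Cirrhosis-PTH against Cirrhosis, at 43.8 ± 5.08 CPM in Cirrhosis-PTH, 26.6 ± 2.34 CPM in Cirrhosis and 42.8 ± 5.33 CPM in Control. Pkd2, the ciliary channel polycystin-2, fell in Cirrhosis-PTH against Cirrhosis by 0.34 ± 0.10, as did Gpbar1, the membrane bile acid receptor (2.07 ± 0.75 lower, at under 1 CPM). Against Control, 3 of 14 were higher in Cirrhosis-PTH: Slc10a2, Ano1 and the water channel gene Aqp1 (0.28 ± 0.08).

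Simple keratin genes other than the 3 above were counted in the same way. Of 5 tested, 4 rose in Cirrhosis against Control and 3 fell in Cirrhosis-PTH against Cirrhosis, with medians of 1.68 and -1.56. Krt8, the type II keratin that hepatocytes also make, measured 68.9 ± 5.12 CPM in Cirrhosis-PTH, 239.6 ± 75.4 CPM in Cirrhosis and 74.6 ± 7.18 CPM in Control (SD, n = 6 each). Its partner Krt18 measured 80.1 ± 9.98, 236.0 ± 64.1 and 91.5 ± 5.77 CPM in the same order. Krt80 fell by 1.95 ± 0.34 in Cirrhosis-PTH against Cirrhosis (adjusted p = 0.00011). Krt20 had no count in any Control library. Krt80 lay 40881 bp from Krt7, the nearest tested protein-coding gene on that side.

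Claudin-4 and EPCAM act at cell junctions, and 16 other genes of epithelial junctions showed no common direction. In Cirrhosis against Control 6 rose and 5 fell (median -0.10), and in Cirrhosis-PTH against Cirrhosis 3 rose and 4 fell (median -0.09). Cdh1, the gene of E-cadherin, measured 33.4 ± 5.68 CPM in Cirrhosis-PTH, 68.2 ± 12.5 CPM in Cirrhosis and 44.4 ± 7.43 CPM in Control, while Cldn12 measured 57.4 ± 3.62, 38.3 ± 2.61 and 56.2 ± 3.92 CPM in the same order. Cldn3, which lies 39280 bp from Cldn4, passed no comparison, with a log2 difference of -0.38 ± 0.23 in Cirrhosis against Control and 0.04 ± 0.23 in Cirrhosis-PTH against Cirrhosis.

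Genes linked to signals for duct growth, receptors among them, were described next. Of 22 such genes 21 were tested: 15 rose and 3 fell in Cirrhosis against Control (median 0.98), and 2 rose and 12 fell in Cirrhosis-PTH against Cirrhosis (median -0.76). Tnfrsf12a, the receptor through which the cytokine TWEAK stimulates duct-like progenitor cells, measured 2.48 ± 0.986 CPM in Cirrhosis-PTH, 29.9 ± 14.4 CPM in Cirrhosis and 2.52 ± 0.620 CPM in Control (SD, n = 6 each). It fell by 3.59 ± 0.34 in Cirrhosis-PTH against Cirrhosis (adjusted p = 3.2e-07). Hgf, the hepatocyte growth factor gene, rose by 1.28 ± 0.11 in Cirrhosis against Control, and its receptor gene Met was lower in Cirrhosis than in Control by 0.73 ± 0.08. In Cirrhosis-PTH against Cirrhosis, Hgf fell by 0.94 ± 0.11 and the YAP target gene Ctgf by 1.17 ± 0.17, and Lgr5, a Wnt-responsive receptor gene, rose by 1.54 ± 0.21. Lgr5 measured 7.69 ± 1.2 CPM in Cirrhosis-PTH, 2.64 ± 0.55 CPM in Cirrhosis and 7.66 ± 3.02 CPM in Control. The 2 genes that rose, Lgr5 and Met (0.49 ± 0.08), were both lower in Cirrhosis than in Control. Against Control 4 of the 21 were higher in Cirrhosis-PTH, Tgfb2 (2.15 ± 0.36), Ctgf (0.67 ± 0.17), Notch2 (0.21 ± 0.06) and the cytokine gene Lif (2.29 ± 0.65).

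Osteopontin acts through integrins and CD44. All 10 receptor genes tested rose in Cirrhosis against Control (median 1.23), and 8 fell in Cirrhosis-PTH against Cirrhosis (median -0.87). Cd44 measured 15.1 ± 2.81 CPM in Cirrhosis-PTH, 63.9 ± 14.7 CPM in Cirrhosis and 11.8 ± 3.88 CPM in Control (SD, n = 6 each). Itgav, the alpha-v integrin gene, fell by 0.98 ± 0.10 in Cirrhosis-PTH against Cirrhosis, and Itga5 by 1.09 ± 0.13. Against Control 4 of 10 were higher in Cirrhosis-PTH, led by Itga8 (2.01 ± 0.29), an integrin gene of stellate cells.

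Markers of other cell types also differed between the groups, and not always in the direction of the 8 genes. Mesothelial cells also make KRT7 and KRT19, and of 8 mesothelial markers (Msln, Upk3b, Upk1b, Wt1, Lrrn4, Gpm6a, Muc16 and Bnc1) 4 rose in Cirrhosis-PTH against Cirrhosis and none fell, 7 were higher in Cirrhosis-PTH than in Control, and 1, Wt1, was higher in Cirrhosis than in Control. Their summed level ran from 14.5 to 76.1 CPM in Cirrhosis-PTH, from 5.57 to 27.5 CPM in Cirrhosis and from 2.25 to 13.4 CPM in Control, and none of the 8 was at 0 in a whole group. The highest sum was in Cirrhosis-PTH replicate 3, the library with the highest Krt7, Krt19, Epcam, Sox9, Spp1 and Cftr in its group. That library also had the highest scar macrophage sum (545.0 CPM) and stellate and myofibroblast sum (830.0 CPM) of its group. Cirrhosis-PTH replicate 1, with the next highest mesothelial sum (35.1 CPM), had the lowest Epcam, Spp1 and Cftr of that group. Its Krt7 (0.951 CPM) and Krt19 (1.105 CPM) were mid-range, a little below the group medians of 0.993 and 1.20 CPM. The highest Control mesothelial sum was in replicate 8, the library with the highest Krt7, Epcam and Spp1 but the lowest Krt19 in its group. The part of mesothelium in the levels of Krt7 and Krt19 was not tested.

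Macrophages and stellate cells can carry Spp1 and Sox9 RNA. Of 12 markers of scar-associated macrophages, 11 rose in Cirrhosis against Control and 10 fell in Cirrhosis-PTH against Cirrhosis, and their sum ran from 366.0 to 545.0 CPM in Cirrhosis-PTH, 820.8 to 1013 CPM in Cirrhosis and 243.2 to 310.4 CPM in Control. Of 12 stellate and myofibroblast markers, 12 rose and 10 fell in the same comparisons, with sums of 337.2 to 830.0, 932.0 to 1231 and 175.6 to 337.5 CPM in the same groups. Of 12 hepatocyte markers, 10 were lower in Cirrhosis than in Control and 9 higher in Cirrhosis-PTH than in Cirrhosis, and their sum ran from 47180 to 52520 CPM in Cirrhosis-PTH, 29800 to 51840 CPM in Cirrhosis and 45730 to 63270 CPM in Control. Of 8 cell cycle genes, 7 rose in Cirrhosis against Control, and 3 fell and 1 rose in Cirrhosis-PTH against Cirrhosis. No marker of macrophages, stellate cells, hepatocytes or the cell cycle was at 0 in a whole group, and the part of these cells in the levels of Sox9, Spp1 and Cldn4 was not tested. Epithelium from gallbladder, gut or pancreas was also looked for: 6 of its 14 genes could be tested, of which 2 rose and 4 fell in Cirrhosis against Control, and 1 rose and 1 fell in Cirrhosis-PTH against Cirrhosis. Vil1, the gene of the brush border protein villin, measured 0.297 ± 0.117 CPM in Cirrhosis-PTH, 0.558 ± 0.165 CPM in Cirrhosis and 0.0550 ± 0.0517 CPM in Control (SD, n = 6 each). Cdx2, Muc3 and Prss1 had no count in any group.

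The pancreatic enzyme genes Ctrb1, Pnlip and Cpa1 were present in Cirrhosis replicate 2, at 3.13, 2.03 and 1.13 CPM. In the other 17 libraries Pnlip and Cpa1 had no count and Ctrb1 did not exceed 0.0778 CPM. Pancreatic ducts also express Krt7, Krt19, Sox9 and Cftr. Of these, Krt19 was lowest of its group in Cirrhosis replicate 2, and Krt7, Sox9 and Cftr were lowest in Cirrhosis replicate 3. Epcam and Krt23 were also lowest in Cirrhosis replicate 2. The part of pancreas in the levels of the 8 genes was not tested. With Cirrhosis replicate 2 left out, 7 of the 8 genes were called higher in Cirrhosis against Control and 3 lower in Cirrhosis-PTH against Cirrhosis, as with it. Of all 22117 genes tested in that fit, 5360 were called higher and 3863 lower in the same comparisons.

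**Figure D4:**
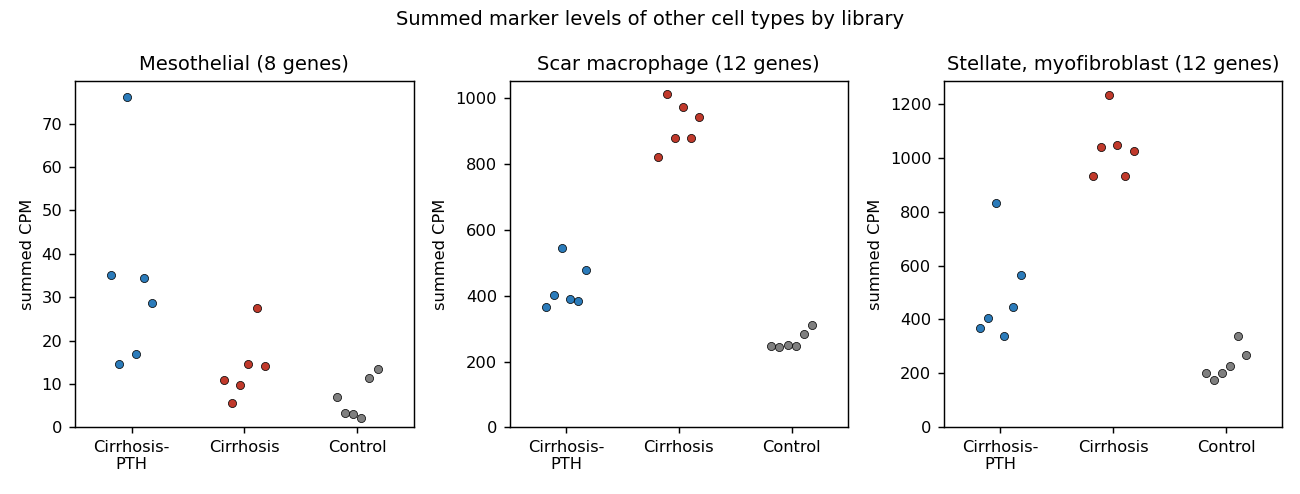
Summed CPM of the markers of 3 other cell types, 1 point per library, on linear axes from 0. The mesothelial sum reaches 76.1 CPM in Cirrhosis-PTH replicate 3, and the macrophage and stellate sums are highest in the 6 Cirrhosis libraries.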

How the data were processed

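The authors deposited whole-number counts, 1 value per gene and library, from liver. The submitters' processing notes name GRCm38 and list cutadapt 4.2, Trim Galore, Bowtie 1.3.1, Bowtie2, StringTie 2.1.5 and HISAT2 2.2.1. Their roles, the counting program, its strandedness and the annotation are not given in the sources used here.

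The counts of all libraries (each from 1 mouse) were fitted together, as 3 groups, in edgeR 4.0.16 under R 4.3.3, after filterByExpr at its defaults and TMM scaling. Robust quasi-likelihood F-tests were two-sided, with Benjamini-Hochberg adjustment over 21914 genes and a threshold of 0.05. SEs come from the F statistic. CPM is the count over the TMM-scaled library size. Ratios used log2 CPM with a prior count of 2. Coordinates and exon lengths come from GENCODE mouse release 21, on GRCm38.

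The genes, lists and tests were chosen with earlier results of these data known, and no p is given for a list. Of each other list, up to 4 called genes with the smallest p are named per comparison, with exceptions chosen after their values were seen. Some genes that these rules would name are not reported here. Alternatives were DESeq2 1.42.0, other size factors, upper quartile scaling, leaving out ribosomal RNA loci, no filter, 12 libraries per fit, leaving out libraries, and a replicate block.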

Additional observations from a re-analysis of the deposited data

Results flagged for a closer look

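Within each group of 6 libraries, each of the 8 genes was checked for a library far from the rest by Dixon's ratio, in 24 groups of values in all. Chance flags about 1 in 20 such groups. The Epcam level of 1.995 CPM in Control replicate 8 was the highest of its group, and its gap to the next library covered 0.651 of the group's range, against a critical value of 0.625. The Sox9 level of 4.03 CPM in Control replicate 2 was the lowest of its group, with a gap of 0.653 of the range.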

How the results depend on the processing

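In Cirrhosis against Control 7 of the 8 genes were called under every alternative run, and in Cirrhosis-PTH against Cirrhosis 3 were called under all of them, except 4 without Cirrhosis-PTH replicate 3. In Cirrhosis-PTH against Control the count of 2 moved to 4 with DESeq2's Wald test, 1 in a fit of the 12 libraries compared, where Cldn4 was filtered out, 4 without both Control replicates 7 and 8, and 1 to 4 when single libraries were left out. The cause was not tested. Ratios between the genes that passed ran from 4 to 15 in Cirrhosis against Control, 11 to 16 in Cirrhosis-PTH against Cirrhosis and 0 to 6 in Cirrhosis-PTH against Control when single libraries were left out, an alternative chosen after seeing the data. Values near 0 changed sign when 1 library was left out: Krt23 in Cirrhosis against Control (-0.49 to 0.071), in Cirrhosis-PTH against Cirrhosis (-0.41 to 0.15) and in Cirrhosis-PTH against Control (-0.65 to 0.022), Krt19 in Cirrhosis-PTH against Cirrhosis (-0.47 to 0.12), Sox9 in Cirrhosis-PTH against Control (-0.028 to 0.15) and the Sox9 to Spp1 ratio in Cirrhosis-PTH against Cirrhosis (-0.25 to 0.051). Of 813 values recomputed for single genes and ratios, 772 kept direction and side of the threshold.

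Same-numbered libraries of different groups did not deviate together over all tested genes (correlations of -0.06 to 0.05), and the labels do not say that the numbers pair mice. Such correlations cannot exclude something shared by number that acts on only some genes. With the replicate number as a block, 7, 3 and 2 of the 8 genes were called in Cirrhosis against Control, Cirrhosis-PTH against Cirrhosis and Cirrhosis-PTH against Control, and 9526, 8219 and 1354 genes in all. In the last comparison the block added Krt7 (1.71, adjusted p = 0.027) and lost Cftr (1.46, adjusted p = 0.11). Depth limits Cldn4 and Cftr most, which had at most 14 and 25 counts in any Control library.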

Other observations

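In the deposited table, the count 2 was rarer than its neighbours: 19961 cells of the table held a count of 1, 13789 a count of 2, 15550 a count of 3 and 15174 a count of 4. In Control, 3 of the 6 Cldn4 values rest on counts of 3 or 4.

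Genes next to the 8 genes were read as well. Krt17, the nearest tested protein-coding gene above Krt19 at a distance of 107552 bp, fell by 2.88 ± 0.98 on the log2 scale in Cirrhosis-PTH against Cirrhosis. Sparcl1, 321385 bp from Spp1, rose by 3.03 ± 0.23 in Cirrhosis against Control, and Pkd2, 18400 bp away on the other side, rose by 0.41 ± 0.10. Neither neighbour of Cftr (Wnt2 and Cttnbp2) passed any comparison with edgeR's quasi-likelihood test.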
